A study of Mus musculus with 4 samples.

Results

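Genes that carry zinc, iron and copper across membranes or hold them in the cell were followed in mouse embryonic fibroblasts (MEFs) on their way from a differentiated state toward pluripotency, a process called reprogramming. The genes were chosen by symbol: every Slc30 and Slc39 gene, 4 further transporters (Slc11a1, Slc11a2, Slc31a1, Slc40a1), the transferrin receptor Tfrc, the ferritins Fth1 and Ftl1, the copper pumps Atp7a and Atp7b, the metallothioneins Mt1, Mt2 and Mt3, and the zinc sensor Mtf1. The array listed 37 of them, and 36 had a probe set of their own, out of 18193 genes in all. Per the labels, the MEFs were fixed, permeabilized, stained and sorted. The 4 fractions were Oct4+Klf4+EpCAM+ (below, the EpCAM+ fraction), Oct4+Klf4+EpCAM-negative (the EpCAM-negative fraction), Oct4+Klf4-negative (the Klf4-negative fraction) and Oct4-negative. Each was read on 1 array, so none of the differences could be tested or checked in a replicate. The labels give no strain, no day of sorting, no introduced factors, no Klf4 or EpCAM gate for the Oct4-negative cells and no EpCAM gate for the Klf4-negative cells. A shared culture of the Oct4-negative cells with the other fractions is not stated either, so in the Oct4 step and between the ends a difference between cultures and one between fractions cannot be told apart.

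Cells keep free zinc low by balancing 2 transporter families. Slc39 (ZIP) proteins bring zinc into the cytosol from outside or from organelles, Slc30 (ZnT) proteins move it out of the cytosol, and metallothioneins bind what is left, under control of the transcription factor Mtf1. Iron enters with transferrin through Tfrc, crosses the endosome through Slc11a2, is stored in ferritin and leaves through ferroportin, the product of Slc40a1. Iron regulatory proteins stabilize Tfrc mRNA and block ferritin translation when iron is scarce, and the array reads mRNA only. Copper enters through Slc31a1 and is pumped into the secretory pathway by Atp7a and Atp7b.

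Levels are log2 values of 1 probe set a gene, the one with the highest mean over the 4 arrays, and were compared only within a probe set. A gene counted as measured when any of its 4 levels reached 4.53, the median over the whole data table, called the floor. By that floor 26 metal genes were measured and 10, with levels from 1.97 to 4.18, were not, against 11428 measured genes in all. Calls of higher or lower required a difference of 2-fold or more with the brighter of both levels at the floor. The wording "at least" marks a fold whose dimmer level was no brighter than 2.94, the top reading among 27 bacterial controls without signal, against which that fold was then computed. The 4 comparisons share arrays with one another: the Oct4 step (Klf4-negative over Oct4-negative), the Klf4 step (EpCAM-negative over Klf4-negative), the EpCAM step (EpCAM+ over EpCAM-negative) and the ends (EpCAM+ over Oct4-negative).

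The transcripts of the sorted proteins followed the gates, with Pou5f1 (Oct4) at 11.70, 11.66 and 11.48 in the EpCAM+, EpCAM-negative and Klf4-negative fractions and 7.59 in the Oct4-negative one. Klf4 stood at 10.60 in the EpCAM+, 10.20 in the EpCAM-negative, 6.24 in the Klf4-negative and 7.32 in the Oct4-negative fraction, and Epcam at 9.52 in the EpCAM+, 6.54 in the EpCAM-negative, 5.195 in the Klf4-negative and 4.63 in the Oct4-negative fraction. Of 10 fibroblast markers, 8 reached the floor in the EpCAM+ fraction and 9 in each of the others, but their summed linear level was 3078 in the EpCAM+, 6148 in the EpCAM-negative, 11373 in the Klf4-negative and 14817 in the Oct4-negative fraction. The marker Dcn ran the other way, at 10.98 in the EpCAM+, 10.97 in the EpCAM-negative, 8.62 in the Klf4-negative and 6.76 in the Oct4-negative fraction. In bulk RNA, fewer cells of a type and less RNA per cell cannot be told apart. The 3′ end of Gapdh exceeded its 5′ end by 1.303 on the log2 scale in the Klf4-negative fraction and by 0.97 to 1.04 in the other 3. For Actb the same difference was -0.07 to -0.05 over the 4 fractions. For Tfrc it was -1.11 in the EpCAM+, -1.05 in the EpCAM-negative, -1.29 in the Klf4-negative and -1.28 in the Oct4-negative fraction. The part of RNA integrity in the results was not tested.

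Of the 26 measured metal genes, 12 passed 2-fold in at least 1 of the 4 comparisons, against 28.2% of all measured genes. By the probe sets used, the other 14 stayed within a range of 1.13-fold to 1.65-fold over the fractions. Some of their other probe sets varied more, such as 1 for Mtf1 with levels from 4.57 to 5.74. The Klf4 step held 4 higher genes (Slc39a8, Slc40a1, Slc39a11 and Slc39a14), against a background of 8.44% of all measured genes called higher, and 1 lower gene (Mt2), against 6.88%, or 5 of 26 either way against 15.3%. The Oct4 step held 1 lower gene (Slc39a13, background 4.84%) and 0 higher ones (background 3.59%), or 1 of 26 either way against 8.43%. The EpCAM step held 0 in either direction, where 3.11% of measured genes were higher and 1.79% lower, together 4.89%. Between the ends, 5 metal genes were higher (background 11.9%) and 6 lower (background 10.8%), or 11 of 26 either way against 22.6%.

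**Figure D1:**
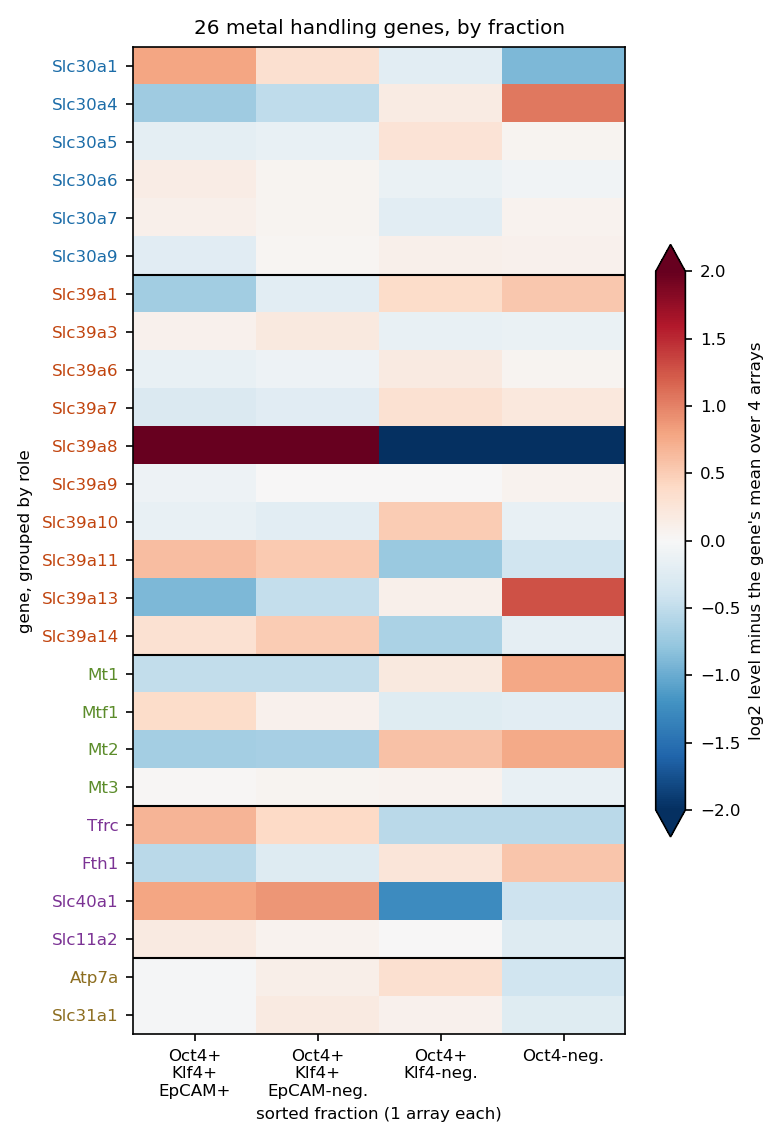
Heat map of the 26 measured metal genes (rows, grouped by role) in the 4 fractions (columns, 1 array each). Colour is the log2 level minus the gene's own mean over the arrays, with Slc39a8 beyond the colour range in all 4 columns and most rows pale, as in the 14 genes within 1.65-fold.

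Slc39a8, an importer of zinc, manganese, iron and cadmium, showed the largest difference of the metal genes. Its level was 8.35 in the EpCAM+, 8.43 in the EpCAM-negative, 2.91 in the Klf4-negative and 2.34 in the Oct4-negative fraction. Both Klf4-positive fractions were thus far above the floor and both others were at the level of the bacterial controls. The Klf4 step amounted to at least 44.9-fold, and the ends differed by at least 42.6-fold. Its other probe set showed the same split, with 4.81 in the EpCAM+, 4.94 in the EpCAM-negative, 2.17 in the Klf4-negative and 1.98 in the Oct4-negative fraction. The log2 difference of Slc39a8 at the EpCAM step was -0.08. The summed linear level of 8 trophoblast markers was also higher in the Klf4-positive fractions, at 3268 in the EpCAM+, 1085 in the EpCAM-negative, 163 in the Klf4-negative and 253 in the Oct4-negative fraction, and so was the keratinocyte sum given further on. Of the 6 measured trophoblast markers, 4 were higher at the Klf4 step (Tfap2c, Hand1, Gata3 and Krt8), against 8.44% of all measured genes. Krt8 was the brightest, at 11.34 in the EpCAM+ and 9.50 in the EpCAM-negative fraction. Elf5 and Krt18 were not called there, and Cdx2 and Eomes were below the floor everywhere. Of 9 measured neural markers, 4 were higher at that step (Tubb3, Fabp7, Sox1 and Stmn2) and 4 lower (background 6.88%). The part of these markers in the level of Slc39a8 was not tested.

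A close relative, Slc39a14, which also imports manganese and non-transferrin iron, was measured in every fraction. Slc39a14 had levels of 8.20 in the EpCAM+, 8.40 in the EpCAM-negative, 7.27 in the Klf4-negative and 7.72 in the Oct4-negative fraction. It was 2.20-fold higher at the Klf4 step, but its 4 probe sets gave log2 differences from 0.22 to 1.13, and their mean, 0.73, did not reach 2-fold. Slc39a11 had levels of 6.99 in the EpCAM+, 6.90 in the EpCAM-negative, 5.64 in the Klf4-negative and 5.98 in the Oct4-negative fraction. Its higher levels lay in the same 2 fractions as those of Slc39a8, 2.40-fold at the Klf4 step. Between the ends Slc39a11 differed by 2.01-fold, which falls to a log2 difference of 0.93 once the arrays are centred on their medians.

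Other importers were lower through the gates. Slc39a13 releases zinc from the secretory pathway, and its loss causes a connective tissue disorder in humans. Its level was 5.51 in the EpCAM+, 5.93 in the EpCAM-negative, 6.505 in the Klf4-negative and 7.68 in the Oct4-negative fraction. The difference was 2.26-fold lower at the Oct4 step and 4.49-fold lower between the ends, with a smaller drop at each of the other gates. Slc39a1, an importer at the cell surface, had levels of 8.31 in the EpCAM+, 8.79 in the EpCAM-negative, 9.37 in the Klf4-negative and 9.54 in the Oct4-negative fraction, 2.35-fold lower between the ends. These 2 genes have 1 probe set each, so no second reading was available. The fibroblast marker sum given above was lower through the gates as well. At the Oct4 step 3 of 9 measured markers were lower (background 4.84%) and 3 higher (Thy1, Postn and Dcn, background 3.59%). Between the ends 8 were lower (background 10.8%) and 1 was higher (Dcn, background 11.9%). The part of these markers in the values of both genes was not tested.

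The remaining importers stayed under 2-fold. Slc39a10 was highest in the Klf4-negative fraction, at 9.49, against 8.85 in the EpCAM+, 8.78 in the EpCAM-negative and 8.85 in the Oct4-negative fraction, and its 2 probe sets gave log2 differences of 0.44 and 0.64 at the Oct4 step. Slc39a6, which pairs with Slc39a10 in one complex, had levels of 10.19 in the EpCAM+, 10.23 in the EpCAM-negative, 10.52 in the Klf4-negative and 10.39 in the Oct4-negative fraction. Slc39a7, the outlet for zinc of the endoplasmic reticulum, had levels of 9.13 in the EpCAM+, 9.20 in the EpCAM-negative, 9.73 in the Klf4-negative and 9.63 in the Oct4-negative fraction. All 3 were somewhat lower in the Klf4-positive fractions than in the Klf4-negative one, by log2 differences of -0.71, -0.29 and -0.53 at the Klf4 step. The Golgi transporter gene Slc39a9 varied by 1.13-fold, with 6.65 in the EpCAM+, 6.77 in the EpCAM-negative, 6.77 in the Klf4-negative and 6.83 in the Oct4-negative fraction. Slc39a3, an importer at the cell surface, varied by 1.27-fold, with 6.14 in the EpCAM+, 6.24 in the EpCAM-negative, 5.90 in the Klf4-negative and 5.92 in the Oct4-negative fraction. Its other probe set was 1.68-fold higher at the Klf4 step. Slc39a2, Slc39a4, Slc39a5 and Slc39a12, the second of these being the intestinal uptake route, were below the floor everywhere.

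**Figure D2:**
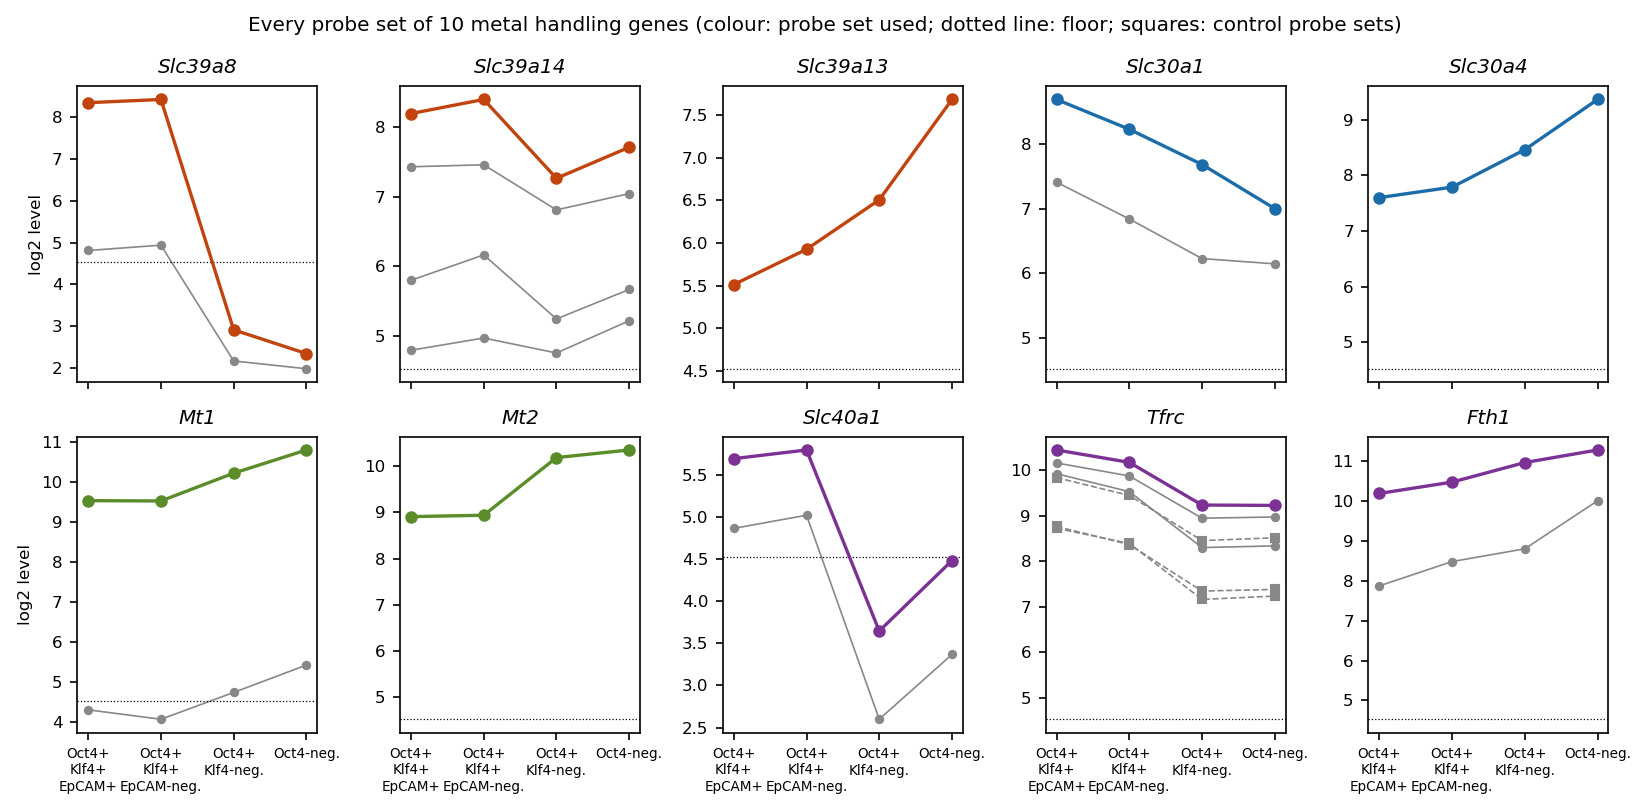
Log2 level (vertical axes, differing between panels) of every probe set of 10 metal genes in the 4 fractions (horizontal axes, 1 array each). The probe set used is coloured, the others are grey, squares are the Tfrc control probe sets and the dotted line is the floor of 4.53. The probe sets of Slc39a8, Slc40a1 and Tfrc run alike, and those of Fth1 are lower at each gate by differing amounts. The faintest one of Slc39a14 is nearly flat.

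Among the Slc30 genes, 2 moved through all 3 gates in opposite directions. Slc30a1, the zinc exporter of the plasma membrane and a target of Mtf1, had levels of 8.69 in the EpCAM+, 8.23 in the EpCAM-negative, 7.68 in the Klf4-negative and 7.002 in the Oct4-negative fraction. Each fraction was thus above the one before its gate, and the ends differed by 3.22-fold, or 2.40-fold by the other probe set. At the Oct4 step the 2 probe sets of Slc30a1 gave log2 differences of 0.68 and 0.08, so by the second that step was nearly flat. Slc30a4, which fills endosomes and secretory vesicles with zinc, had levels of 7.6025 in the EpCAM+, 7.79 in the EpCAM-negative, 8.46 in the Klf4-negative and 9.37 in the Oct4-negative fraction. It was 3.40-fold lower between the ends, most of it at the Oct4 step (1.87-fold) and the Klf4 step (1.595-fold). Slc30a5, Slc30a6 and Slc30a7, which supply zinc to enzymes of the early secretory pathway, and Slc30a9, a mitochondrial zinc exporter, varied by 1.38-fold, 1.22-fold, 1.24-fold and 1.27-fold over the fractions. Slc30a5 had levels of 7.52 in the EpCAM+, 7.56 in the EpCAM-negative, 7.99 in the Klf4-negative and 7.76 in the Oct4-negative fraction. Slc30a6 had levels of 8.84 in the EpCAM+, 8.75 in the EpCAM-negative, 8.55 in the Klf4-negative and 8.62 in the Oct4-negative fraction. These 2, whose products work as a pair, were close to flat. Slc30a7 had levels of 7.24 in the EpCAM+, 7.196 in the EpCAM-negative, 6.93 in the Klf4-negative and 7.21 in the Oct4-negative fraction. Slc30a9 had levels of 7.68 in the EpCAM+, 7.95 in the EpCAM-negative, 8.02 in the Klf4-negative and 7.998 in the Oct4-negative fraction. The 2 probe sets of Slc30a7 disagreed at the Klf4 step, with log2 differences of 0.27 and -0.26. The exporters of specialized cells, Slc30a2 (mammary gland), Slc30a3 (synaptic vesicles) and Slc30a8 (insulin granules), and the manganese exporter gene Slc30a10 were below the floor on every array.

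The metallothioneins Mt1 and Mt2, cysteine-rich proteins that bind zinc and copper, were lower between the ends, and Mt2 also at the Klf4 step. The fibroblast marker sum was lower through the gates too, and its part in these values was not tested. Mt2 had levels of 8.91 in the EpCAM+, 8.94 in the EpCAM-negative, 10.19 in the Klf4-negative and 10.35 in the Oct4-negative fraction. It formed 2 pairs, split at the Klf4 gate by 2.37-fold, and was 2.72-fold lower between the ends. Mt1 had levels of 9.53 in the EpCAM+, 9.52 in the EpCAM-negative, 10.22 in the Klf4-negative and 10.80 in the Oct4-negative fraction. Its difference was spread over the Oct4 step (1.495-fold lower) and the Klf4 step (1.62-fold lower), and the ends differed by 2.41-fold. The probe set used for Mt1 can read several transcripts, and the more specific one, which lay below the floor in both Klf4-positive fractions, gave 2.17-fold. Mt3, a metallothionein of brain, was faint and nearly flat, with levels of 5.09 in the EpCAM+, 5.12 in the EpCAM-negative, 5.14 in the Klf4-negative and 4.93 in the Oct4-negative fraction.

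Mtf1, which drives metallothionein and Slc30a1 transcription when zinc rises, had levels of 6.83 in the EpCAM+, 6.55 in the EpCAM-negative, 6.22 in the Klf4-negative and 6.25 in the Oct4-negative fraction. Its 5 probe sets gave log2 differences from -0.42 to 0.57 between the ends, so no direction is given for it. Of its known targets, Mt1 and Mt2 were lower and Slc30a1 was higher in the EpCAM+ fraction than in the Oct4-negative one.

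The start regions of these 3 genes and of Slc39a8 are shown because Mtf1 binds metal response elements near the start sites of its targets, and because the first 3 differed in opposite directions. Sequences are from RefSeq (GRCm38.p6), plus strand, from 250 bases before to 30 bases after an annotated start. They cover chr8:94178839-94179118 for Mt1, chr8:94172368-94172647 for Mt2, chr1:191906531-191906810 for Slc30a1, and chr3:135825029-135825308 and chr3:135825407-135825686 for 2 starts of Slc39a8. Capitals mark the core of the metal response element, searched as TGCACNC or TGCGCNC on both strands.
Mt1: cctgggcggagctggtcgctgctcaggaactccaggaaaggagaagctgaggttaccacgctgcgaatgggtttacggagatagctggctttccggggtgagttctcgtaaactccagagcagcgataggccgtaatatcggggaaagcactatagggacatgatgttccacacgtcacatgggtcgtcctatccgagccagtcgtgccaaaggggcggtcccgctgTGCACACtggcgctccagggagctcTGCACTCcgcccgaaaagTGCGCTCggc
Mt2: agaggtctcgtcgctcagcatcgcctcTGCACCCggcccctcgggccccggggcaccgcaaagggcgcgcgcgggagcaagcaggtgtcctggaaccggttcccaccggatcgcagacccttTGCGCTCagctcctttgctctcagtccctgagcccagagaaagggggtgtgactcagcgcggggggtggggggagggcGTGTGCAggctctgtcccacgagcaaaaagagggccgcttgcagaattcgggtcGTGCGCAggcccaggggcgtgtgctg
Slc30a1: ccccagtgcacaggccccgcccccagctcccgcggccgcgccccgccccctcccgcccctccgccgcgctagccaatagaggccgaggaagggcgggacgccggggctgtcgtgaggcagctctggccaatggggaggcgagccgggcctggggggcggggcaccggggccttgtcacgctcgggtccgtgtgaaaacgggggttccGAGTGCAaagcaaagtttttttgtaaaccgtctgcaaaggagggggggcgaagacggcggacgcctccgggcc
Slc39a8 start 1: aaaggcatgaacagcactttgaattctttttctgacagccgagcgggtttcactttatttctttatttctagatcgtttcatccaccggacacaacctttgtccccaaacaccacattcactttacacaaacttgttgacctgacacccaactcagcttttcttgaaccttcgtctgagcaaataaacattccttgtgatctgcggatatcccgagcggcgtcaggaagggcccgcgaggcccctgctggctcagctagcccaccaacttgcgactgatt
Slc39a8 start 2: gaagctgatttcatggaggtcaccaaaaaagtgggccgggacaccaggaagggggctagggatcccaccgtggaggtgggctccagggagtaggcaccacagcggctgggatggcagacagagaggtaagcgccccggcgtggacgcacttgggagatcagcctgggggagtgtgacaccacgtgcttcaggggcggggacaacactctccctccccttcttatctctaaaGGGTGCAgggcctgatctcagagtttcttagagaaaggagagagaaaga

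Mt1 held 3 cores within these 280 bases, Mt2 held 4, Slc30a1 held 1, and the Slc39a8 starts held 0 and 1. Positions count the first base of the gene as 1, with no base 0. The cores of Mt1 begin close to the annotated start, at -23, 3 and 21, and those of Mt2 are spread from -223 to 5. The Slc30a1 core begins at -43 and that of Slc39a8 at -19, both on the minus strand. The 31 metal genes with an entry had 38 windows of 300 bases, and 18 of these held such a core, against 25.7% of all 32851 windows. The antioxidant response element, searched as TGACNNNGC on both strands, occurred in 7 of the 38 windows and in 12.4% of all. Klf-type boxes, searched as GGGTGTGG or GGGCGTGG on both strands, occurred in 3 of the 38, those of Slc11a1, Slc30a4 and Slc30a9, and in 8.58% of all. The core of the hypoxia response element, searched as ACGTG or GCGTG on both strands, occurred in 24 of the 38 and in 43.8% of all. The letters of these motifs can overlap. A match describes the letters and not a bound site.

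Of the 4 measured iron genes, 1 was called at the Klf4 step (Slc40a1), against 15.3% of all measured genes called either way. Between the ends 3 were called (Slc40a1, Tfrc and Fth1), against 22.6%. Tfrc, the transferrin receptor, had levels of 10.44 in the EpCAM+, 10.17 in the EpCAM-negative, 9.23 in the Klf4-negative and 9.22 in the Oct4-negative fraction. Both Klf4-positive fractions lay above both others, by 1.92-fold at the Klf4 step and 2.33-fold between the ends, and the Oct4 step was 1.01-fold. Its 3 gene probe sets gave log2 differences between the ends from 1.19 to 1.58. The array also carries 3 control probe sets for this transcript, from its 3′ end, middle and 5′ end, and these gave 1.49, 1.38 and 1.32 between the ends. All 6 readings were therefore above 2-fold between the ends.

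Ferritin ran the other way. Fth1, the heavy chain that oxidizes iron for storage, had levels of 10.19 in the EpCAM+, 10.48 in the EpCAM-negative, 10.97 in the Klf4-negative and 11.29 in the Oct4-negative fraction. Each gate added a drop, with log2 differences of -0.32, -0.49 and -0.28 at the Oct4, Klf4 and EpCAM steps. The other probe set gave -1.21, -0.32 and -0.61, the first of these past 2-fold. The ends differed by 2.13-fold, or 4.40-fold by the other probe set. Ferritin genes have many processed copies, so both readings may include them. Probe sets for the light chain Ftl1 also list Ftl1-ps2, so Ftl1 has no value of its own and was not counted. The brightest of these shared probe sets had levels of 10.96 in the EpCAM+, 11.11 in the EpCAM-negative, 11.35 in the Klf4-negative and 11.82 in the Oct4-negative fraction, 1.82-fold lower between the ends.

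Slc40a1, the gene of the iron exporter ferroportin, had its lowest level in the Klf4-negative fraction. It had levels of 5.69 in the EpCAM+, 5.79 in the EpCAM-negative, 3.65 in the Klf4-negative and 4.48 in the Oct4-negative fraction, the last 2 below the floor. It was 4.43-fold higher at the Klf4 step and 2.31-fold higher between the ends, and its other probe set gave at least 4.22-fold and 2.82-fold. Uptake and export transcripts, Tfrc and Slc40a1, were thus both higher between the ends, and Fth1 was lower. Slc11a2, the endosomal iron transporter, had levels of 7.48 in the EpCAM+, 7.36 in the EpCAM-negative, 7.31 in the Klf4-negative and 7.03 in the Oct4-negative fraction, a range of 1.36-fold. Its 4 probe sets gave log2 differences from 0.14 to 0.83 between the ends. Slc11a1, a metal transporter of macrophage phagosomes, reached no more than 3.08.

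Because macrophages are rich in ferroportin and erythroid precursors in Tfrc, markers of both were read. Of 12 macrophage and leukocyte markers, 9 were below the floor everywhere, and Adgre1, Aif1, Itgam, Fcgr1 and Tyrobp were at the level of the bacterial controls on all 4 arrays. The summed linear level of the 12 was 519 in the EpCAM+, 896 in the EpCAM-negative, 157 in the Klf4-negative and 315 in the Oct4-negative fraction. Laptm5 alone had log2 levels of 8.38 in the EpCAM+, 9.50 in the EpCAM-negative, 4.69 in the Klf4-negative and 3.81 in the Oct4-negative fraction. Without it, an alternative chosen after seeing the data, the sum of the other 11 was 185 in the EpCAM+, 173 in the EpCAM-negative, 131 in the Klf4-negative and 301 in the Oct4-negative fraction, highest in the Oct4-negative one. Cd68, the brightest of these 11, had log2 levels of 6.48 in the EpCAM+, 6.32 in the EpCAM-negative, 5.95 in the Klf4-negative and 7.76 in the Oct4-negative fraction. Cd14 was lowest in the Klf4-negative fraction, as Slc40a1 was. Its log2 levels were 4.69 in the EpCAM+, 4.85 in the EpCAM-negative, 3.21 in the Klf4-negative and 4.63 in the Oct4-negative fraction, 3.13-fold higher at the Klf4 step. Of 7 erythroid markers, 6 were below the floor everywhere, and Klf1, Gata1, Rhag and Epb42 were at the level of the bacterial controls. Their sum was 71.9 in the EpCAM+, 69.0 in the EpCAM-negative, 86.4 in the Klf4-negative and 81.6 in the Oct4-negative fraction. The part of such cells in the levels of Slc40a1 and Tfrc was not tested.

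The copper genes varied by less than 2-fold. Slc31a1, the copper importer, had levels of 7.07 in the EpCAM+, 7.28 in the EpCAM-negative, 7.18 in the Klf4-negative and 6.85 in the Oct4-negative fraction. Its log2 differences were 0.10 at the Klf4 step and 0.22 between the ends. The other probe set of Slc31a1 gave 0.64 and 0.72. Atp7a, a copper pump of the Golgi, had levels of 6.93 in the EpCAM+, 7.07 in the EpCAM-negative, 7.27 in the Klf4-negative and 6.56 in the Oct4-negative fraction, and its log2 difference of 0.72 at the Oct4 step (0.53 by the other probe set) was its largest over the 3 gates. Atp7b, the pump that exports copper from liver, was below the floor, at no more than 4.18. No copper transporter passed 2-fold in any of the 4 comparisons.

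**Figure D3:**
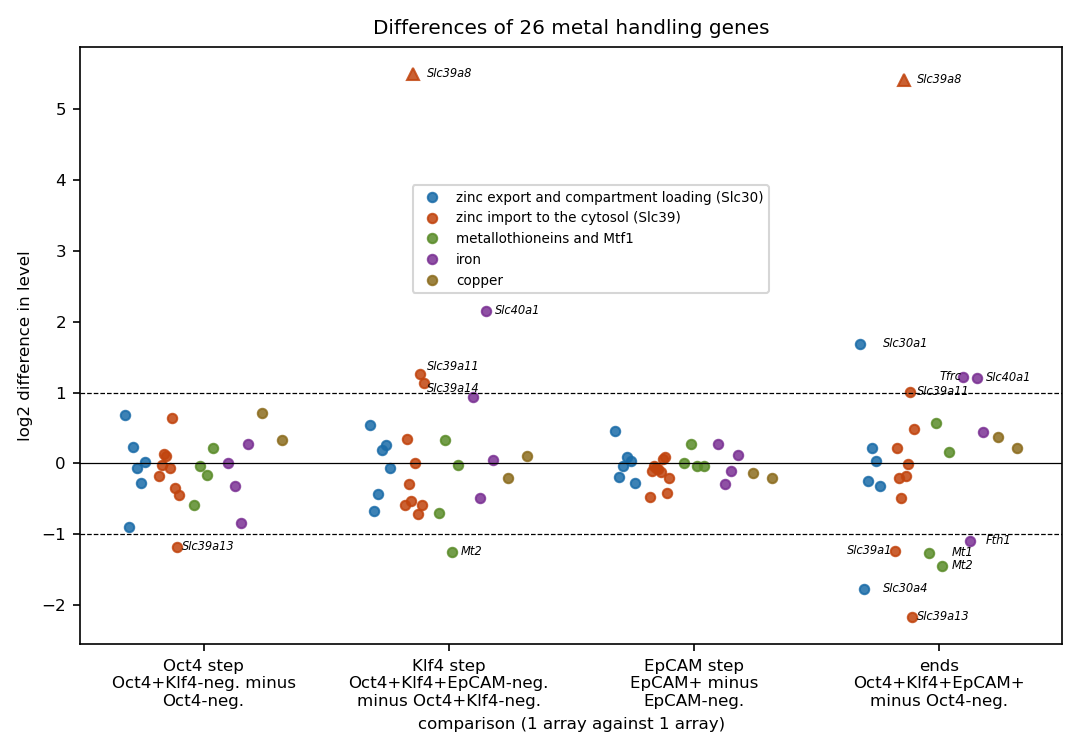
Log2 difference in level (vertical axis) of the 26 measured metal genes in the 4 comparisons (horizontal axis, 1 array against 1 array), coloured by role, with dashed lines at 2-fold. Genes past the size rule are named, and triangles are lower bounds, both of Slc39a8 (at least 44.9-fold and at least 42.6-fold), which is not drawn at the Oct4 step, where both its levels lay at the bacterial controls. None passes a dashed line at the EpCAM step.

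The order through the gates was also counted. Genes lower at each of the 3 gates and at least 2-fold lower between the ends were 5 of the 26 (Fth1, Mt2, Slc30a4, Slc39a1 and Slc39a13), against 5.19% of all measured genes. In the other direction there were 2 of 26 (Slc30a1 and Tfrc), against 5.29%. Some single steps in these runs were small, such as a log2 difference of -0.03 for Mt2 at the EpCAM step and of 0.01 for Tfrc at the Oct4 step. The median log2 difference of the 26 genes was -0.03 at the Oct4 step, -0.01 at the Klf4 step, -0.05 at the EpCAM step and 0.095 between the ends, beside 0.02, 0.04, -0.0008 and 0.07 for all measured genes. The genes thus split in both directions around medians near 0. The median size of the difference at the Klf4 step was 0.51 for the metal genes and 0.32 for all measured genes.

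Further genes of metal handling, taken from 7 lists, added 107 genes with a probe set, of which 84 were measured and 22 passed 2-fold in a comparison. That is 26.2%, near the 28.2% of all measured genes that did so. In the list of iron uptake and release, 3 of 7 measured genes were lower at the Klf4 step and 1 was higher, against the background of 6.88% lower and 8.44% higher. The lower ones were Steap1, Steap2 and Steap3, of a family that includes reductases of iron and copper ions. Steap4 was below the floor everywhere. Steap1 had levels of 4.62 in the EpCAM+, 5.84 in the EpCAM-negative, 8.84 in the Klf4-negative and 8.55 in the Oct4-negative fraction, 7.998-fold lower at the Klf4 step. Steap2 and Steap3 were 4.97-fold and 2.41-fold lower there. Of 9 measured fibroblast markers, 7 were lower and 1 was higher at the same step, and their part in these values was not tested. The higher gene of the iron list was Scara5, a receptor that takes up ferritin, 13.7-fold at the Klf4 step. Scara5 had levels of 7.07 in the EpCAM+, 6.73 in the EpCAM-negative, 2.95 in the Klf4-negative and 3.53 in the Oct4-negative fraction. Its split between fractions resembled that of Slc39a8, but it rests on 1 of its probe sets, the other being below the floor everywhere.

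The list of iron storage, sensing and export had 0 of 9 measured genes past 2-fold at the Klf4 step, where 15.3% of all measured genes were. The iron regulatory protein genes Aco1 and Ireb2 had log2 differences of -0.15 and -0.02 there, and Fbxl5, which targets Ireb2 protein for degradation, -0.42. Hmox1, the haem oxygenase that frees iron from haem, had levels of 7.62 in the EpCAM+, 7.48 in the EpCAM-negative, 7.53 in the Klf4-negative and 8.95 in the Oct4-negative fraction. Only the Oct4-negative fraction stood apart, and Hmox1 was 2.68-fold lower at the Oct4 step. Slc48a1, which moves haem out of lysosomes, was 3.81-fold lower at that step, as was Srxn1, an antioxidant enzyme under Nrf2, by 2.07-fold. Of the 3 measured macrophage and leukocyte markers, Cd68 and Cd14 were 3.52-fold and 2.68-fold lower at the same step, and Laptm5 was 1.83-fold higher. The other 9 were below the floor everywhere. The part of such cells in these values was not tested. Of 12 measured Nrf2 targets, 2 were lower and 0 higher at the Oct4 step, and of 25 measured genes of haem and iron-sulphur cluster synthesis 1 was lower and 0 higher, where 4.84% of all measured genes were lower and 3.59% higher. At the Klf4 step the haem list had 1 higher gene, the porphyrin transporter Abcb6 (2.496-fold), and 1 lower gene, the mitochondrial transporter Abcb10 (2.56-fold), against 8.44% higher and 6.88% lower in all measured genes. Between the ends, the Nrf2 list had 1 higher gene, the glutathione transferase Gsta4 (4.86-fold), and 3 lower ones, Hmox1, Srxn1 and Mgst1, out of 12, where 11.9% of all measured genes were higher and 10.8% lower. The last of these rests on a probe set that can read several transcripts, with a log2 difference of -2.58, and was near 0 without it.

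Mt4, a metallothionein of stratified squamous epithelium, ran against Mt1 and Mt2. It had levels of 7.14 in the EpCAM+, 5.63 in the EpCAM-negative, 3.05 in the Klf4-negative and 3.56 in the Oct4-negative fraction. It was 6.02-fold higher at the Klf4 step and 2.84-fold higher at the EpCAM step. Of 8 measured keratinocyte markers, 5 were higher at the Klf4 step (Krt14, Itgb4, Krtdap, Krt6b and Pkp1), against 8.44% of all measured genes. The differences on the log2 scale were -0.23 for Krt5, -0.25 for Krt10 and -0.23 for Ivl. The summed linear level of all 12 was 6134 in the EpCAM+, 3889 in the EpCAM-negative, 421 in the Klf4-negative and 354 in the Oct4-negative fraction. Among the 12, Trp63, Krt15, Lor and Col17a1 were below the floor everywhere, and the part of such cells in the level of Mt4 was not tested. The zinc response list, with 6 measured genes, had 1 higher (Mt4) and 1 lower (Cited2, 2.24-fold) at the Klf4 step. Of all measured genes, 8.44% were higher and 6.88% lower there.

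In the copper list, 4 of 16 measured genes were lower between the ends and 0 higher, all 4 of them lysyl oxidases, copper enzymes that cross-link collagen and elastin. Of all measured genes, 10.8% were lower and 11.9% higher in that comparison. Loxl1 had levels of 3.92 in the EpCAM+, 4.41 in the EpCAM-negative, 7.61 in the Klf4-negative and 10.17 in the Oct4-negative fraction, 76.0-fold lower between the ends. Lox, Loxl3 and Loxl4 were 6.44-fold, 7.41-fold and 2.05-fold lower. The fibroblast sum was lower between the ends too, and its part in these values was not tested. Lox did not run one way, being 2.03-fold higher at the Klf4 step. The copper chaperone genes Atox1, Cox17 and Ccs had log2 differences of -0.30, 0.12 and -0.90 between the ends, and Sod1, the copper and zinc superoxide dismutase, 0.11. Of 12 measured genes in the list of other divalent metal transporters, 1 was higher between the ends, the magnesium transporter gene Cnnm4 (4.14-fold), and 2 were lower, Atp13a2 (2.995-fold) and Cnnm2 (2.92-fold). These 3 of 12 stand beside 22.6% of all measured genes called either way.

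**Figure D4:**
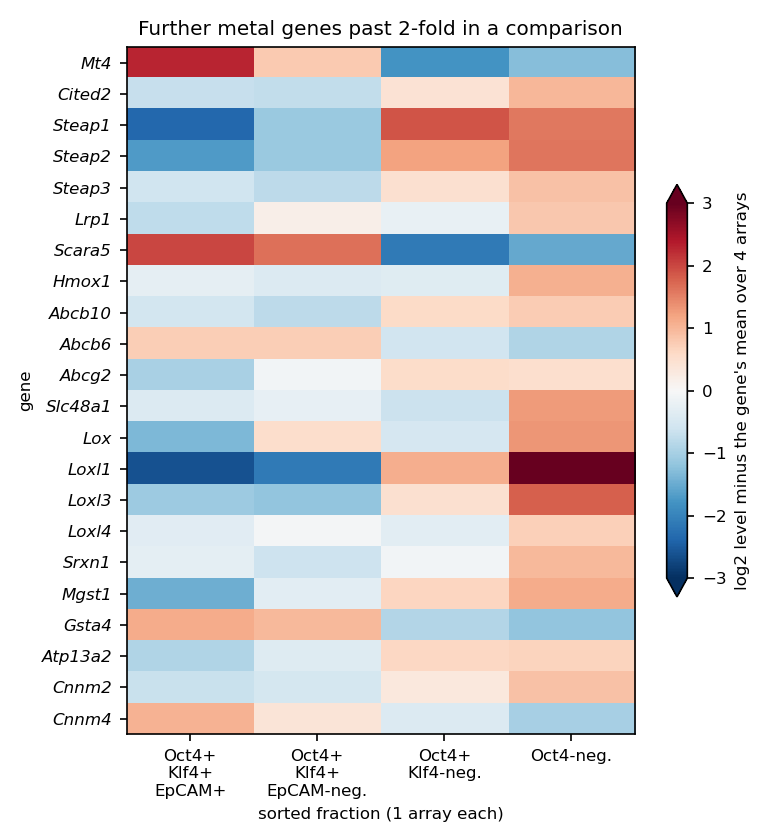
Heat map of the 22 further metal genes past 2-fold in a comparison (rows) in the 4 fractions (columns, 1 array each). Colour is the log2 level minus the gene's own mean. Scara5, Mt4, Abcb6, Gsta4 and Cnnm4 are higher to the left, in the Klf4-positive fractions, and the Steap genes and Loxl1 are higher to the right.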

How the data were processed

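RNA of 4 sorted fractions of reprogramming MEFs was read on Affymetrix arrays, 1 per fraction, after isolation from fixed cells with RecoverAll and amplification with the Ovation Pico WTA kit, per the labels' protocols. The authors deposited RMA values on the log2 scale for 45101 probe sets, per the submitters' processing notes, with its version not given in the sources used here. RMA normalizes each array to a shared distribution, so levels are relative within an array. The 64 control probe sets were set aside. Genes were named through the platform annotation: 34945 probe sets carried a single symbol, 932 carried more than one and gave no gene a value, and 9160 had no entry. All 36 metal genes with a probe set of their own matched the RefSeq table of GRCm38.p6.

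Differences were computed with Python 3.11.15 and pandas 2.3.3. A call needed a log2 difference of at least 1 and a higher level at or above the floor of 4.53. With 1 array a group there is no p-value or SD, and precision is limited by having so few arrays. As a gauge of measurement scatter alone, the median SD between probe sets of a gene was 0.17, 0.17, 0.12 and 0.18 at the Oct4, Klf4 and EpCAM steps and the ends (5708 genes). Calling by size was first run on simulated levels, with independent noise of SD 0.12 and differences planted only in genes well above the floor. That run cannot show how far replicate arrays would vary. Every measured metal gene is named, and of the further lists up to 6 genes a list and direction past 2-fold, others with their values. The genes and lists were chosen with earlier results of these data known. Alternatives covered the choice of probe set, the floor, the threshold and the scaling of arrays.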

Additional observations from a re-analysis of the deposited data

How the results depend on the processing

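The 17 calls of metal genes kept their direction under each of the 5 alternatives that change probe sets or scaling. Much of this was fixed in advance. Slc39a1, Slc39a11, Slc39a13, Slc30a4 and Mt2 have 1 probe set each, so the choice of probe set could change nothing for them. Centring moved no array by more than 0.04 on the log2 scale, too little to reverse a call. Averaging all probe sets of a gene took Slc39a14 under 2-fold at the Klf4 step (log2 difference 0.73), and centring the arrays or quantile-normalizing them again took Slc39a11 under it between the ends (0.93 and 0.92). Counts moved over 1.5 times only with the threshold itself, which by construction admits more or fewer genes. At 1.5-fold, 3 metal genes were higher and 2 lower at the Oct4 step and 4 were lower at the Klf4 step. At 3-fold, 0 were lower at the Oct4 step, 2 were higher and 0 lower at the Klf4 step, and 2 were higher and 2 lower between the ends. A floor at the 75th percentile, no floor, and counting Ftl1 from its shared probe set, an alternative chosen after seeing the data, left each count within 1.5 times. Among the further genes, Mgst1 turned from a log2 difference of -2.58 to 0.051 between the ends when probe sets that can read several transcripts were left out, and the cause was not tested. No paired analysis was possible because each fraction has 1 array. Levels at or below the bacterial controls, such as those of Slc39a8 in the Klf4-negative and Oct4-negative fractions, give only a bound on a fold.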
